A study of Mus musculus with 2 samples.

Results

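The Ly6 genes Ly6a, Ly6c1, Ly6c2, Ly6e and Ly6i were followed in leukocytes from B16-F10 melanomas grown in mice with or without the genotype for inducible loss of the exonuclease gene Trex1. The 5 genes, of 32432 genes in the count matrices, were chosen by symbol with the difference between the genotypes already known. Their levels in the 2 genotypes are therefore given as a description, without p-values. B16-F10 is a transplantable melanoma line of C57BL/6 mice, and TREX1 degrades cytosolic DNA that would otherwise engage the cGAS-STING pathway and lead to type I interferon.

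The inducible knockout (iKO) mice had the genotype Trex1 fl/fl with R26CreERT2 ki/wt. The controls were Trex1 wt/fl with R26CreERT2 ki/wt, so they also carried 1 floxed allele and the tamoxifen-inducible Cre recombinase, and were not wild type. All mice were males of 8 to 12 weeks. They received 1000 B16-F10 cells in Matrigel in the skin of both legs, and 1 mg of tamoxifen on each of 3 days from day 5. Tumours were taken on day 14, CD45+ cells were enriched on beads and live CD45+ cells were sorted. CreERT2 is expressed from the Rosa26 locus, which is active in most tissues, so the deletion was not restricted to leukocytes, while the injected tumour cells carry none of these alleles. Each genotype was one 10x 3' library pool with 4 hashtagged samples, called iKO 1 to 4 and control 1 to 4 here. The labels do not say whether a hashtag is 1 mouse, so every spread and p-value measures the variation between these samples. Genotype and pool were the same split and cannot be told apart.

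Ly6 proteins belong to the Ly6/uPAR family, small cysteine-rich domains that are mostly held on the cell surface by a glycosylphosphatidylinositol (GPI) anchor. Ly6C, encoded by Ly6c1 and Ly6c2, is the standard antigen for separating classical (Ly6C-high) from patrolling (Ly6C-low) monocytes in mice, and it is also carried by memory CD8 T cells and plasmacytoid dendritic cells. Ly6a encodes Sca-1, an antigen of stem and progenitor cells and of activated lymphocytes. Ly6e is widely expressed and restricts the entry of several viruses, and Ly6i is a close relative of Ly6a that is found on myeloid cells. Several genes of the cluster respond to interferon, so Ly6C staining can rise for reasons other than cell identity. The question asked of the data was whether Ly6c2 still marked monocytes when the genotypes differed.

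The matrices held 23731 barcodes, of which 22052 were kept (13232 iKO and 8820 control cells). Total UMIs per sample were 19370674 to 96457227 in iKO and 17111065 to 33319752 in control. Kept cells had a median of 12983 to 14490.5 UMIs by sample in iKO, and of 6405 to 11845.5 in control. The iKO medians were thus higher, but they also reflect which classes a sample held. In CD8 T-like cells the median was 18634 and 15199.5 UMIs in iKO 1 and 2. It was 7374 and 7996.5 in iKO 3 and 4, and 8540 to 13144 in control. Cells were thinned to 1 depth wherever cells rather than UMIs were counted. No barcode was shared between samples of 1 pool, and at most 6 were shared between samples of different pools. Trex1 was listed at 0 UMIs in 7 of the 8 samples and at 2 UMIs in control 2, so its level could not check the labels. Why it was so low in both genotypes was not tested. Over all kept cells, Ly6c2 had 332465 UMIs, Ly6a 290682, Ly6e 350447 and Ly6i 23883, against 350 for Ly6c1. No marker gene of melanoma cells or fibroblasts was seen in a large enough share of any cluster's cells to count as detected there.

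The 5 genes lie in a row on mouse chromosome 15, in the order Ly6e, Ly6i, Ly6a, Ly6c1, Ly6c2 in the RefSeq table for GRCm38.p6. The counts were made on GRCm39, so no coordinate is carried over between them. Ly6c1 and Ly6c2 are the pair whose reads could be confused, since their longest coding transcripts (GENCODE vM21) were identical over 95% of aligned columns. In the last 300 bases, which 3' libraries sample, they were identical over 93.5%. Of 211 windows of 90 bases there, 35 (16.6%) of Ly6c1 also occurred in Ly6c2, whereas Ly6a, Ly6e and Ly6i shared none with any of the others. Ly6c1 and Ly6c2 values are thus uncertain against each other, and both are given. Summing their counts kept the direction of the Ly6c2 difference in every class.

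Upstream sequences are shown for this pair because their transcripts are almost the same while their UMI totals were far apart. RefSeq promoters of the other 3 genes were not used here. The 250 bases before each start site, on the minus strand of GRCm38.p6, are chr15:75048838-75049087 for Ly6c1 and chr15:75111972-75112221 for Ly6c2. Capitals mark the PU.1 core motif GAGGAAGT, the recognition core of a myeloid and B-cell transcription factor.
Ly6c1: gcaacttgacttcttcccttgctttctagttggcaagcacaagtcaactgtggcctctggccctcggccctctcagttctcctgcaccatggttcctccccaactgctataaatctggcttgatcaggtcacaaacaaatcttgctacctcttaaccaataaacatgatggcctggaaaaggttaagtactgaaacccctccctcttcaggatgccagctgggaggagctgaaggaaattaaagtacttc
Ly6c2: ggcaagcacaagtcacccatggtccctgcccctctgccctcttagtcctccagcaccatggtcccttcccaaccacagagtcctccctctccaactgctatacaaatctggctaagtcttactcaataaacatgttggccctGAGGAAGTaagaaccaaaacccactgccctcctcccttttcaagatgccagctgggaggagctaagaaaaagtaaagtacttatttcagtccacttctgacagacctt
The promoters were identical at 171 of 290 aligned columns (59.0%), mismatched at 39 and gapped at 80. The windows are offset against each other, so part of the gaps comes from where each window begins and ends. This share can therefore not be set against that of the transcripts. Ly6c2 held the PU.1 core at -108 to -101 from the start on the gene's strand, and Ly6c1 did not hold these letters on either strand. The same core was in 2.44% of 27025 mouse promoters of this length. The interferon-stimulated response element core (GAAA, any 2 bases, GAAA; 3.04% of promoters), the interferon-gamma-activated site TTCNNNGAA (7.18%) and the NF-kB core (0.13%) were searched on both strands. None was found in either window, which says only that these letters are not in these 250 bases.

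Over all cells of a sample, Ly6c2 was higher in iKO. It reached 1710, 1632, 976.5 and 1009 CPM (UMIs of the gene scaled to an equal total of UMIs) in iKO 1 to 4 and 400.3, 205.4, 277.4 and 191.7 CPM in control 1 to 4. Every iKO sample lay above every control sample, and iKO 1 and 2 were the highest. The fitted log2 fold change was 2.32 ± 0.28 (SE, n = 4 and 4). Ly6i had fewer UMIs and was higher in the same samples, with 122.2, 111.3, 80.5 and 74.7 CPM in iKO and 29.7, 26.2, 15.3 and 20.3 CPM in control (log2 fold change 2.09 ± 0.24). Ly6a stood at 1550, 1391, 646.6 and 755.6 CPM in iKO and at 478.3, 306.8, 349.3 and 178.4 CPM in control (1.74 ± 0.35). As for Ly6c2, iKO 1 and 2 were above iKO 3 and 4. Ly6e differed least of these 4 genes, with 1427, 1262, 1358 and 1391 CPM in iKO and 873.1, 690.8, 872 and 598.7 CPM in control (0.85 ± 0.11). Ly6c1 stayed between 1.09 and 1.68 CPM in iKO and between 0.25 and 1.49 CPM in control, and its groups overlapped (0.53 ± 0.44).

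Thus 4 of 5 genes had iKO samples wholly above control samples, where 8.41% of the 13459 genes tested did so. Because the genes were chosen on this contrast, nothing is read from that count. The median log2 fold change of the 5 genes was 1.74 and that of all genes -0.0064. In sums over all cells, more cells of a type and more RNA per cell cannot be told apart. Monocyte-like cells made up 15.6% ± 2.52 of iKO and 8.26% ± 4.15 of control cells (SD, n = 4 each). That share is context only, since genes that define the class differed between genotypes.

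Cells were clustered without any Ly6 gene, and clusters were named from markers that include none. Monocyte-like cells joined clusters 1, 11 and 14, led by Cxcl10, Vcan and Chil3 respectively. Different clusters held most of the class in each genotype: cluster 1, led by the interferon-induced chemokine genes Cxcl10 and Cxcl9, held 54.3% of iKO but 9.54% of control monocyte-like cells. Cluster 11 held 19.5% and 58.9%, and cluster 14 held 26.2% and 31.5%. A class led by Ace and Treml4 (clusters 15 and 20) carried genes of patrolling monocytes. Clusters with both monocyte and macrophage markers are called mixed. Among T cells, clusters led by Lef1 and Tcf7, genes of naive and memory T cells, and by the NK receptor genes Klra9 and Klrb1c were kept apart from CD8 T-like, CD4 T-like and regulatory T (Treg)-like cells.

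Ly6c2 did not single out monocytes in the control tumours. The highest mean was in Klra9/Klrb1c-led T cells at 1107 ± 342 CPM (SD, n = 4), followed by Lef1/Tcf7-led T cells at 746 ± 232 and monocyte-like cells at 680 ± 220. The sample ranges of these 3 classes overlapped. Ace/Treml4-led cells (268 ± 135), CD8 T-like cells (248 ± 66.3), mixed cells (230), neutrophil-like cells (180) and macrophage-like cells (140) came next, then CD4 T-like (109), B-like (72.6), cDC2-like (60.3) and mature DC-like cells (37.9). Treg-like cells were lowest at 30.8. No neighbours in this order were separated beyond their samples' range. Plasmacytoid dendritic cell (pDC)-like cells reached the minimum of 20 cells in control 3 alone, at 1273 CPM.

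In the iKO tumours the order began with monocyte-like cells, at 3239 ± 610 CPM. They were followed by pDC-like (3094 ± 1484), Klra9/Klrb1c-led T (1996 ± 993), Lef1/Tcf7-led T (1525) and Ace/Treml4-led cells (1521), then mixed (1434), macrophage-like (1353) and CD8 T-like cells (1002 ± 88.4). The next class, neutrophil-like cells at 724, did not overlap CD8 T-like cells, the only gap between neighbours. Below it came cDC2-like (655), CD4 T-like (492), B-like (254), cDC1-like (231), Treg-like (175) and mature DC-like cells (159). Monocyte-like and pDC-like cells therefore stood at about the same level, and the sample range of monocyte-like cells also overlapped that of the Klra9/Klrb1c-led T cells.

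**Figure D1:**
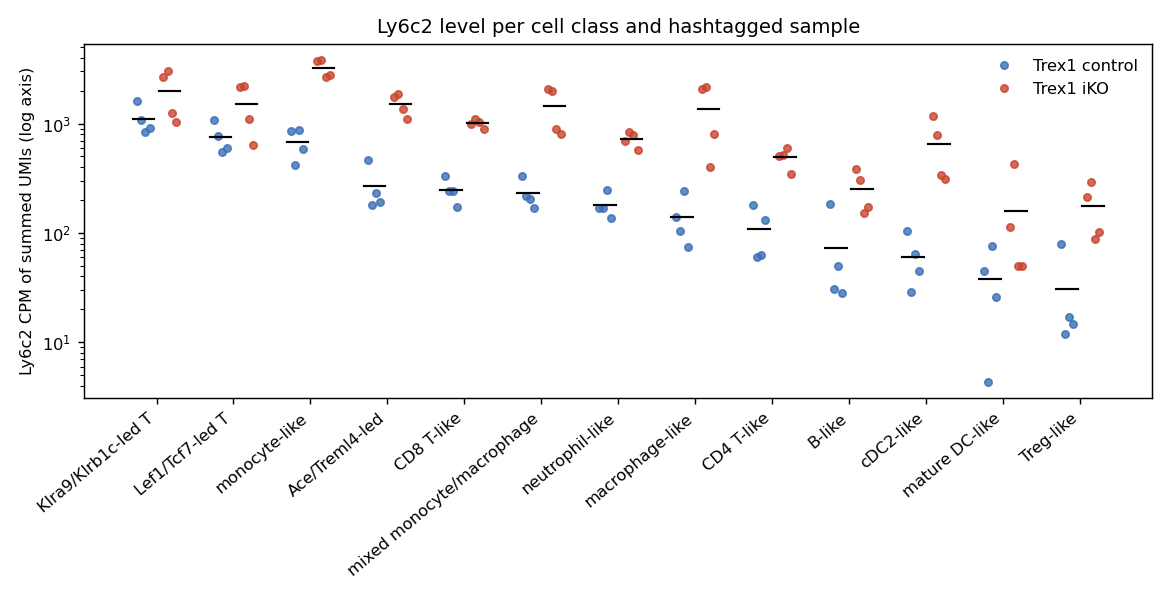
Ly6c2 level (CPM of summed UMIs, log axis) per cell class, with 1 point per sample, iKO and control side by side and a black line at each mean. Control monocyte-like samples (415.9 to 864.7 CPM) sit below all iKO monocyte-like samples (2663 to 3806 CPM) and within or below the range of the control Klra9/Klrb1c-led T cells (840.3 to 1597 CPM).

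Within monocyte-like cells, Ly6c2 was at 3724, 3806, 2663 and 2763 CPM in iKO and at 859.3, 415.9, 864.7 and 581.4 CPM in control. The lowest iKO sample was above the highest control sample, as for 11.3% of the genes tested in this class, and control 2, the lowest, held just 42 such cells. The log2 fold change was 2.26 ± 0.23, with a range of 2.10 to 2.40 when each sample was left out in turn. The difference was present in each monocyte-like cluster. Cluster 11 had 533 CPM in control and 2555 in iKO, cluster 14 had 908 (3 control samples) and 3828, and cluster 1 had 1163 (2 control samples) and 3246. Leaving out cluster 1, the iKO-rich one, gave a log2 fold change of 2.34.

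CD8 T-like cells showed the same direction. Their Ly6c2 level was 984.7, 1095, 1040 and 887.8 CPM in iKO and 334.8, 242.9, 240.3 and 173.3 CPM in control, without overlap (log2 fold change 2.04 ± 0.17), as for 5.96% of genes. When CD8 T cells were gated by markers, the log2 fold change was lower, at 1.46 ± 0.11. The iKO level in CD8 T-like cells was thus above the control level in monocyte-like cells in every sample. The class was spread over different clusters: cluster 10, led by the effector and memory genes Gzmk and Ccl5, held 35.3% of control and 14.1% of iKO CD8 T-like cells. In that cluster Ly6c2 stood at 777 ± 382 CPM in control and 2353 ± 940 in iKO. Cluster 4, led by the granzyme genes Gzmf and Gzmc, had 140 ± 30.9 CPM in control and 890 in the 2 iKO samples with enough cells. Cluster 5, led by histone genes of dividing cells, had 130 in 2 control samples and 636 ± 123 in iKO. The means of Ly6c2 thus lay further apart between these CD8 clusters than between the monocyte-like clusters, in each genotype. Clusters 2, 23 and 26 of the class are not described here, and cluster 2 alone held 26.9% of iKO but 6.26% of control CD8 T-like cells.

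The other classes went the same way by different amounts. Ace/Treml4-led cells had 1752, 1877, 1352 and 1101 CPM in iKO and 467.8, 179.5, 233.6 and 192.4 CPM in control (log2 fold change 2.43 ± 0.27). Neutrophil-like cells had 693.8, 842.3, 784.5 and 576.2 CPM against 170.4, 167.7, 246.1 and 137.7 CPM (2.13 ± 0.24, or 2.79 when neutrophils were gated by markers). Both classes were without overlap, as for 7.82% of genes in Ace/Treml4-led and 2.98% in neutrophil-like cells. The fold was greatest in cDC2-like cells, where iKO samples had 1182, 791.0, 336.9 and 310.6 CPM and control samples 103.3, 28.9, 64.4 and 44.4 CPM (3.49 ± 0.48). Macrophage-like cells followed, with 2060, 2153, 404.1 and 795.0 CPM against 140.1, 105.0, 241.3 and 73.7 CPM (3.34 ± 0.58), and iKO 3 was the lowest of its group. These classes did not overlap either, as for 5.01% (cDC2-like) and 5.71% (macrophage-like) of genes. Cluster 8 held 62.5% of iKO but 7.27% of control macrophage-like cells, so the class differed in make-up as well.

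Treg-like cells had 79.4, 11.9, 17.2 and 14.7 CPM in control and 214.4, 294.9, 87.1 and 102.6 CPM in iKO (2.67 ± 0.52), with all iKO samples higher, as for 5.33% of genes. Without control 1, which alone was close to the iKO range, the fold change was 3.54. CD4 T-like cells gave 2.21 ± 0.26, or 1.42 when CD4 T cells were gated by markers. B-like cells gave 2.06 ± 0.37, or 3.29 with the gate. Mixed cells gave 2.61 ± 0.37. Mature DC-like cells gave 2.09 ± 0.74, and 0.93 without iKO 2.

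The 2 T-cell classes that carried the most Ly6c2 in control had the smallest folds. Klra9/Klrb1c-led T cells had 2675, 3013, 1258 and 1037 CPM in iKO and 1597, 1077, 840.3 and 912.9 CPM in control, and the groups overlapped (0.90 ± 0.24). Lef1/Tcf7-led T cells had 2156, 2210, 1100 and 633.2 CPM in iKO and 1067, 762.5, 550.6 and 603.9 CPM in control, again with overlap (1.03 ± 0.25). In both, iKO 1 and 2 were above all control samples and iKO 4 was not. iKO 3 was above them in Lef1/Tcf7-led T cells only. Across the 13 classes with 3 or more samples of each genotype, the mean of Ly6c2 was higher in iKO in 13, and in 9 of them the samples did not overlap. Of all genes tested, 9.60% were higher without overlap in mixed, 4.88% in CD4 T-like, 3.74% in B-like, 3.90% in Lef1/Tcf7-led T, 3.03% in Klra9/Klrb1c-led T and 2.41% in mature DC-like cells. Nothing is read from these counts, since the choice of genes used this contrast. The ratio of means ran from 1.80 in Klra9/Klrb1c-led T cells to 10.9 in cDC2-like cells, with a median of 4.53.

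**Figure D2:**
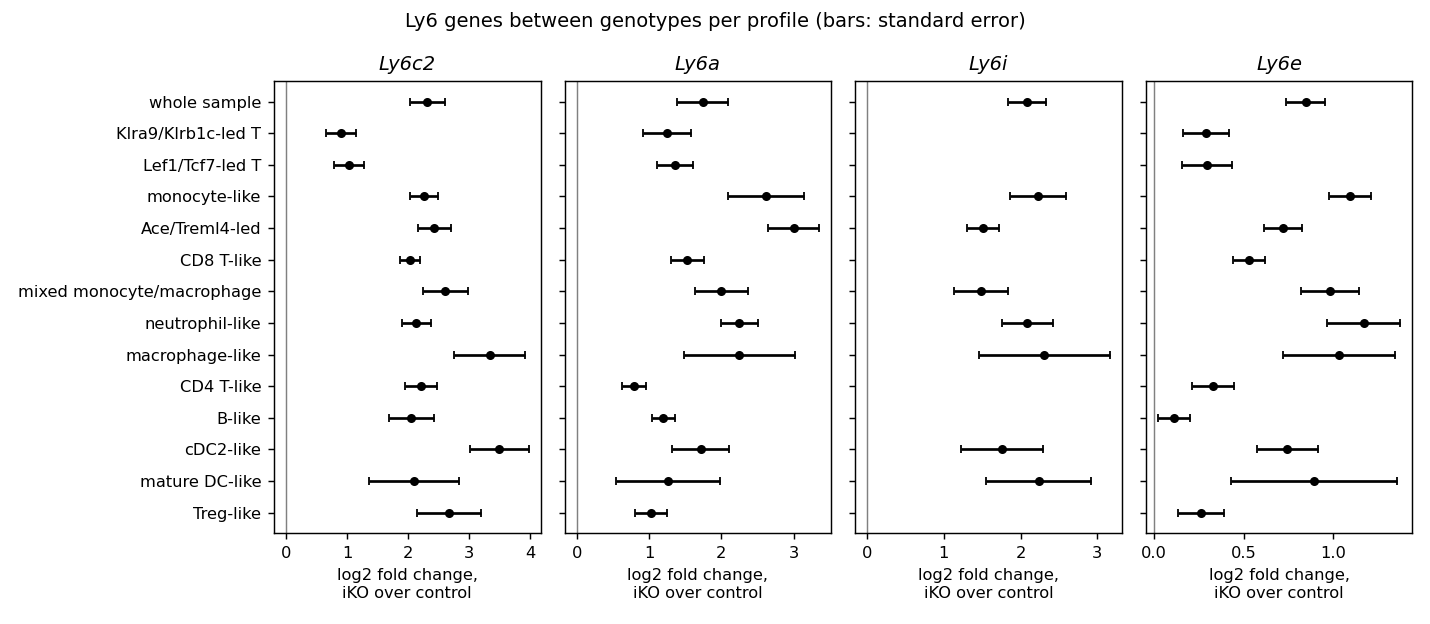
Fitted log2 fold change (iKO over control) of each Ly6 gene in all cells and in each class, with bars for the standard error. Ly6c2 lies right of 0 in every class, from 0.90 in Klra9/Klrb1c-led T cells to 3.49 in cDC2-like cells, and Ly6e lies closer to 0 than Ly6c2 throughout.

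The ratio of monocyte-like cells to another class of the same sample removes what all cells of a sample share. Against Klra9/Klrb1c-led T cells, the log2 ratio of Ly6c2 was -0.89, -1.37, 0.04 and -0.65 in control 1 to 4. In iKO 1 to 4 it was 0.48, 0.34, 1.08 and 1.41. The T-cell class was thus above monocyte-like cells in 3 of 4 control samples and below them in all 4 iKO samples, and the groups did not overlap. Against Lef1/Tcf7-led T cells the ratio was -0.31, -0.87, 0.65 and -0.05 in control and 0.79, 0.78, 1.28 and 2.12 in iKO, also without overlap. Against the other 10 classes with at least 3 samples of each genotype, the genotypes overlapped. The mean log2 ratio to CD8 T-like cells was 1.43 in control and 1.68 in iKO, and that to CD4 T-like cells 2.73 and 2.72. It was lower in iKO against cDC2-like (3.56 in control, 2.51 in iKO) and macrophage-like cells (2.35 and 1.55). The rank of monocyte-like cells by Ly6c2 therefore differed most against T-cell classes with much Ly6c2 in control. The difference between genotypes in these ratios was not tested.

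**Figure D3:**
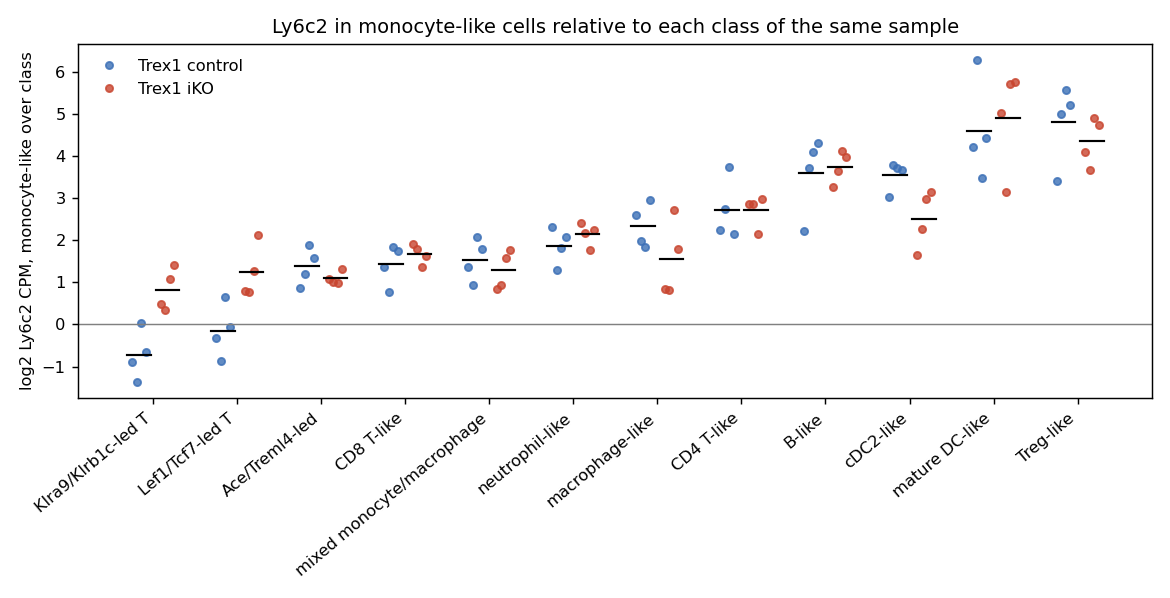
Log2 ratio of Ly6c2 CPM in monocyte-like cells over 12 other classes of the same sample (pseudocount of 1 CPM), with 1 point per sample and black lines at the means. Control samples average -0.72 and -0.15 against the Klra9/Klrb1c-led and Lef1/Tcf7-led T cells, and iKO samples 0.83 and 1.24, while the genotypes overlap in the other 10 classes drawn.

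Tests between cell types within 1 genotype do not use the contrast on which the genes were chosen. For these, cells were gated by raw UMIs of markers that include no Ly6 gene, and gates were compared within samples (edgeR quasi-likelihood test with the sample as a block, Benjamini-Hochberg adjustment over all genes). The monocyte gate (Vcan, Chil3 and F13a1) held 3956 cells, of which 2068 fell in the monocyte-like class, 1209 in the mixed class and 330 in the Ace/Treml4-led class. Chil3 itself was lower in iKO monocyte-like cells (log2 fold change -1.33 ± 0.36), so the gate may not take the same cells in each genotype. Ly6c2 in the monocyte gate was 602.8, 270.8, 631.6 and 296.5 CPM in control and 3364, 3419, 1980 and 1856 CPM in iKO. In the CD8 T gate it was 409.5, 392.9, 334.8 and 363.3 CPM in control and 1032, 1135, 1075 and 844.1 CPM in iKO. The gates overlapped in control and did not overlap in iKO. The CD8 T gate held 5232 cells, with 4540 CD8 T-like, 381 Lef1/Tcf7-led T and 129 Klra9/Klrb1c-led T cells among them. These gate counts pool the genotypes. As classes, monocyte-like (415.9 to 864.7 CPM) and CD8 T-like cells (173.3 to 334.8 CPM) did not overlap in control. Their mean log2 ratio was 1.43 in control and 1.68 in iKO, and the genotypes overlapped.

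Within control, Ly6c2 was higher in the monocyte gate than in 5 of the 6 other gates tested. The log2 difference was 1.67 ± 0.25 against macrophages (adjusted p = 1.3e-05, edgeR), where 11.7% of genes were called higher and Ly6c2 ranked 110 of 10935 by fold. It was 1.23 ± 0.27 against neutrophils (adjusted p = 0.00019, edgeR), where 33.6% of genes were called higher. The largest differences were against dendritic cells (4.20 ± 0.30, with 24.4% of genes higher), B cells (3.88 ± 0.37, with 31.8%) and CD4 T cells (2.65 ± 0.28, with 32.3%). Against CD8 T cells it was 0.48 ± 0.25 and missed the threshold (adjusted p = 0.085, edgeR), where 34.7% of genes were called higher. That call was not stable: without control 2 the difference was 0.66 (adjusted p = 0.019), and with no filter on low counts it was 0.50 (adjusted p = 0.000433).

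Within iKO, Ly6c2 was higher in the monocyte gate than in 6 of the 7 other gates tested. The difference against CD8 T cells was 1.46 ± 0.27 (adjusted p = 2.3e-05, edgeR), with 36.0% of genes called higher. Against macrophages it was 1.29 ± 0.27 (adjusted p = 0.00076, edgeR), with 14.6% of genes higher and Ly6c2 at rank 263 of 10631. Against neutrophils it was 0.92 ± 0.27 (adjusted p = 0.0082, edgeR), with 19.3% of genes higher, and the call was lost without iKO 2 (0.80, adjusted p = 0.052). CD4 T cells (3.61 ± 0.30, with 32.2% of genes higher), B cells (3.29 ± 0.31, with 28.2%) and dendritic cells (3.62 ± 0.30, with 52.5% of genes called in either direction and 2769 of 10631 higher) were again far lower. Against the pDC gate the difference was 0.18 ± 0.27 and was not called (adjusted p = 0.62, edgeR), with 25.1% of genes higher. A call in 1 genotype and not in the other does not show that the 2 differ, which was not tested for the gates.

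**Figure D4:**
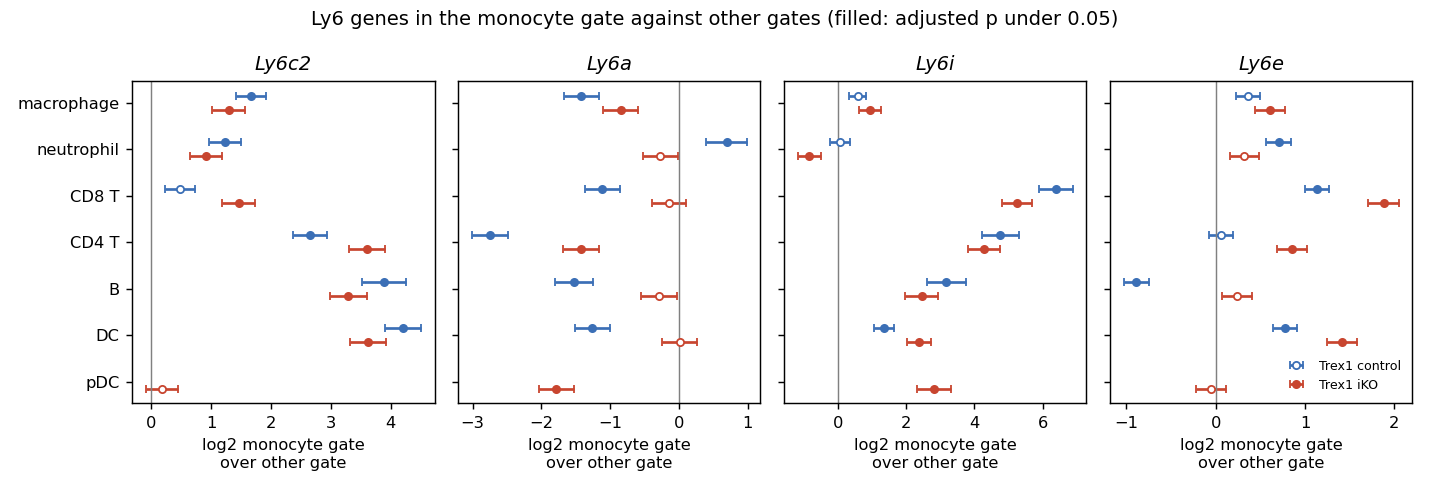
Log2 difference of each Ly6 gene between the monocyte gate and every other gate tested within control and within iKO, with standard errors, filled where the adjusted p was under 0.05. Ly6c2 lies right of 0 against every gate, at 0.48 against CD8 T cells in control and 0.18 against pDC in iKO where the points are open, while Ly6a lies left of 0 against most gates in control.

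Counting cells rather than UMIs gave the share of cells in which Ly6c2 was seen. Each cell was thinned to 2000 UMIs so that depth did not set the share, and shallower cells were left out. Of monocyte-like cells, 64.9%, 33.3%, 60.8% and 51.5% had a Ly6c2 UMI in control 1 to 4, and 96.8%, 95.9%, 91.4% and 89.1% in iKO 1 to 4. The means were 52.6% ± 14.0 and 93.3% ± 3.71 (SD, n = 4 each). Klra9/Klrb1c-led T cells were the class with the highest mean share in control (64.6%, against 78.2% in iKO). CD8 T-like cells went from 34.2%, 26.6%, 28.1% and 25.4% in control to 74.8%, 76.7%, 63.1% and 61.0% in iKO. Control monocyte-like cells thus held a Ly6c2 UMI less often than iKO CD8 T-like cells did on average. Mixed cells went from 23.9% to 69.4%, Ace/Treml4-led cells from 20.9% to 62.3% and macrophage-like cells from 14.6% to 58.7%.

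Treg-like and B-like cells were among the classes with less Ly6c2 and are given for comparison. In control, 3.09% of Treg-like and 3.93% of B-like cells had a Ly6c2 UMI, and in iKO 21.7% and 28.5% had one. Median UMIs per cell of B-like cells were 3550.5 to 3938 in control and 4497 to 4905 in iKO samples before thinning. The other monocyte genes in these classes are set beside Ly6c2. The summed monocyte genes Vcan, Chil3 and F13a1 in CD8 T-like cells were at 1.27% (control) and 0.598% (iKO) of their monocyte-like level, whereas Ly6c2 was at 34.4% and 30.5% of its own (medians over samples). In Klra9/Klrb1c-led T cells they were at 1.84% and 0.705%, with Ly6c2 at 171% and 59.5%. In B-like cells they were at 1.75% and 1.37%, with Ly6c2 at 6.55% and 7.13%, and in Treg-like cells at 1.15% and 0.952%, with 2.69% and 4.74%. The percentage was higher for Ly6c2 than for the monocyte genes in 8 of 8 samples of CD8 T-like, Klra9/Klrb1c-led T and B-like cells, and in 7 of 8 of Treg-like cells. The gap was small in B-like cells of control 4 (4.82% for Ly6c2, 3.41% for the monocyte genes). Treg-like cells of control 4 went the other way (2.52% and 9.99%). The part of stray RNA in the Ly6c2 values was not tested.

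**Figure D5:**
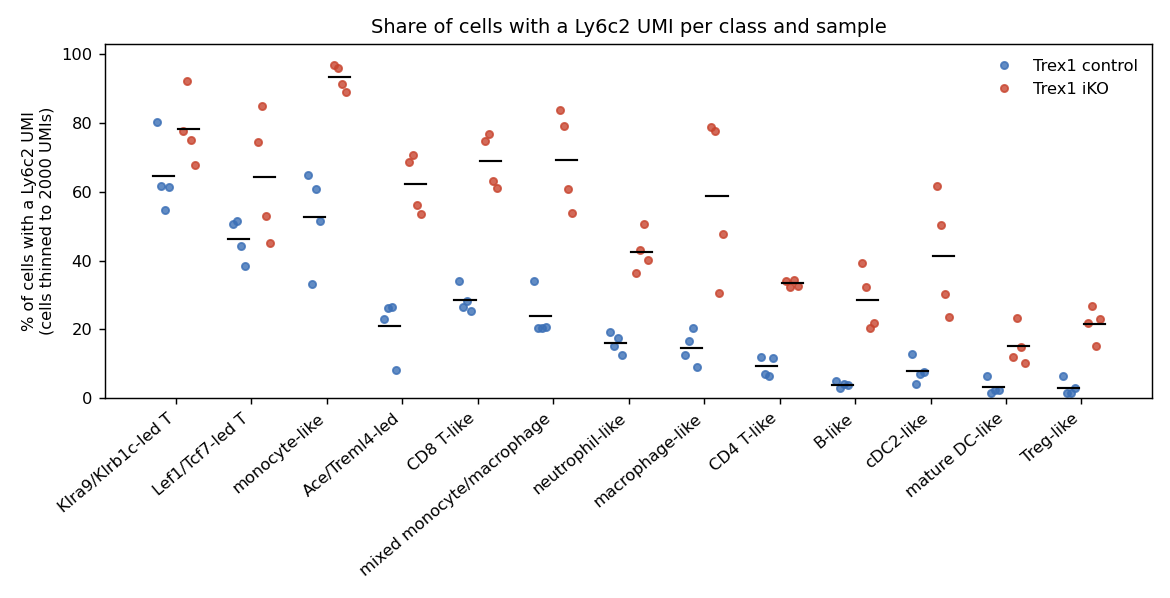
Share of cells with at least 1 Ly6c2 UMI after thinning each cell to 2000 UMIs, per class and sample, with black lines at the means. Monocyte-like cells average 52.6% in control and 93.3% in iKO, CD8 T-like cells 28.6% and 68.9%, and Treg-like cells 3.09% and 21.7%.

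How well a Ly6c2 count alone separated monocyte-like cells from the rest was read from the area under the receiver operating curve, where 0.5 is no separation and 1 is complete. On thinned counts it was 0.687, 0.570, 0.728 and 0.676 in control 1 to 4 and 0.794, 0.799, 0.815 and 0.827 in iKO 1 to 4. The genotypes did not overlap at this depth. On all UMIs the means were 0.781 in control and 0.827 in iKO and the samples overlapped, so the gap depended on depth. Against CD8 T-like cells the mean thinned area was 0.622 in control and 0.771 in iKO, and against B-like cells 0.748 and 0.936. Against Klra9/Klrb1c-led T cells it was 0.401 and 0.665, and in control this T-cell class thus had the higher counts. Of the other genes, Ly6e gave 0.662 and 0.784 against all other cells, Ly6i 0.521 and 0.573, and Ly6a 0.40 and 0.45.

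A sample's Ly6c2-positive cells were mostly not monocyte-like in either genotype. After thinning, 32.2%, 19.6%, 21.0% and 20.7% of control cells and 73.8%, 73.2%, 51.5% and 50.3% of iKO cells were positive. Of these positive cells, 24.0%, 4.19%, 24.5% and 27.9% were monocyte-like in control and 25.5%, 17.8%, 26.3% and 27.3% in iKO. The genotypes overlapped in this share. CD8 T-like cells supplied 33.0% and 44.9% of the positive cells in iKO 1 and 2 but 11.9% and 10.4% in iKO 3 and 4. By UMIs, monocyte-like cells supplied 26.9% of Ly6c2 in control and 38.1% in iKO, mixed cells 19.3% and 13%, CD8 T-like cells 12.5% and 17.7%, and macrophage-like cells 6.40% and 13.2%. The Klra9/Klrb1c-led T cells supplied 10.4% in control and 0.954% in iKO.

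Ly6a had another pattern across cell types. In control it was highest in Treg-like cells (1304 ± 502 CPM), CD4 T-like cells (894 ± 168) and cDC2-like cells (757 ± 356), and monocyte-like cells (181 ± 120) came eleventh of 13 classes. Only neutrophil-like cells (66.4 ± 10.2) were separated from the class above them. In Treg-like cells it was 2036, 906.8, 1199 and 1075 CPM in control and 3216, 3265, 2228 and 2099 CPM in iKO, without overlap (log2 fold change 1.03 ± 0.22). In monocyte-like cells it was 207.4, 340.1, 74.1 and 104.2 CPM in control and 1577, 1475, 559.9 and 569.7 CPM in iKO, also without overlap and with iKO 1 and 2 highest (2.62 ± 0.53). Ace/Treml4-led cells differed most, with 106.9, 80.6, 88.6 and 154.9 CPM in control and 1234, 1290, 466.8 and 581.1 CPM in iKO (3.00 ± 0.35). The fold of Ly6a was thus largest in monocyte classes, where it was low in control, and smallest in CD4 T-like cells (0.79 ± 0.16). Its ratio of means ran from 1.76 to 8.29 over the 13 classes, with 7 of them free of overlap. In these 7, from 2.98% (neutrophil-like) to 11.3% (monocyte-like) of all genes tested were higher in iKO without overlap. Nothing is read from this count either.

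Within control, Ly6a was lower in the monocyte gate than in CD4 T cells (log2 difference -2.74 ± 0.26), B cells (-1.53 ± 0.28), macrophages (-1.42 ± 0.25), dendritic cells (-1.26 ± 0.25) and CD8 T cells (-1.11 ± 0.25). All 5 were called, with adjusted p from 2.5e-10 to 0.00029 (edgeR). Of all genes, 30.5%, 26.5%, 12.1%, 24.3% and 34.9% were called lower in these comparisons. It was higher than in neutrophils (0.69 ± 0.29, adjusted p = 0.041, edgeR), where 33.6% of genes were called higher. DESeq2 did not make that call, and it was lost without control 1 or control 2. Within iKO, Ly6a was lower in the monocyte gate than in pDC (-1.78 ± 0.26), CD4 T cells (-1.42 ± 0.26) and macrophages (-0.85 ± 0.25), where 20.2%, 29.7% and 14.7% of genes were called lower. The macrophage call was lost without iKO 1 (-0.71, adjusted p = 0.12, edgeR) or iKO 4 (-0.88, adjusted p = 0.057, edgeR). The differences from dendritic cells (0.01 ± 0.25), CD8 T cells (-0.15 ± 0.25), neutrophils (-0.28 ± 0.25) and B cells (-0.29 ± 0.26) were not called.

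Ly6i was a myeloid gene in both genotypes. Ace/Treml4-led cells had 185.7, 190.5, 136.9 and 133.7 CPM in control and 550.4, 586.9, 421.4 and 315.5 CPM in iKO (1.51 ± 0.20), above every other class in each genotype. This was so although the Ly6 genes were not used to cluster, and Ly6i headed the genes of cluster 15. Monocyte-like cells had 61.1, 26.4, 26.7 and 53.7 CPM in control and 275.8, 276.0, 126.0 and 134.5 CPM in iKO (2.22 ± 0.37). Neither class overlapped between genotypes, as for 7.82% of genes in Ace/Treml4-led and 11.3% in monocyte-like cells. Control lymphoid classes stood at 2.2 CPM or less. B-like cells, the lymphoid class with the most in iKO, had 24.4, 61.8, 12.2 and 14.7 CPM there and 0, 3.40, 1.84 and 0 CPM in control. Ace/Treml4-led cells supplied 12.2% of all Ly6i UMIs in control and 35.5% in iKO, as they made up 1.67% and 9.50% of cells.

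In the gate tests within control, Ly6i was higher in the monocyte gate than in CD8 T cells (6.38 ± 0.49), CD4 T cells (4.76 ± 0.53), B cells (3.18 ± 0.58) and dendritic cells (1.35 ± 0.29), with adjusted p from 1.1e-12 to 0.00027 (edgeR). Of all genes, 34.7%, 32.3%, 31.8% and 24.4% were called higher in these comparisons. Ly6i was not called against macrophages (0.58 ± 0.26, adjusted p = 0.10, edgeR) or neutrophils (0.07 ± 0.30, adjusted p = 0.85, edgeR). Within iKO it was higher than in CD8 T cells (5.25 ± 0.43), CD4 T cells (4.28 ± 0.46), pDC (2.80 ± 0.50), B cells (2.46 ± 0.48) and dendritic cells (2.38 ± 0.35), with adjusted p from 8.0e-12 to 8.2e-05 (edgeR). Of all genes, 36.0%, 32.2%, 25.1% and 28.2% were called higher against the first 4, and 2769 of 10631 against dendritic cells. Ly6i was also higher than in macrophages (0.95 ± 0.32, adjusted p = 0.025, edgeR), where 14.6% of genes were called higher. It was lower than in neutrophils (-0.82 ± 0.33, adjusted p = 0.049, edgeR), where 18.8% of genes were called lower. Neither call was stable, and DESeq2 made neither. The macrophage call was lost without iKO 3 or iKO 4. The neutrophil call was lost without iKO 1, iKO 2 or iKO 4, and with a gate ratio of 2. By class its direction was the opposite: the iKO log2 ratio of monocyte-like to neutrophil-like cells was 0.94 ± 0.24 (0.62 to 1.15).

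Ly6e was the most even of the abundant members. B-like cells were highest in control (1936 ± 223 CPM) and did not overlap the next class, Ace/Treml4-led cells, while mature DC-like cells were lowest (229). B-like cells had 2169, 2047, 1656 and 1869 CPM in control and 2021, 2277, 2018 and 1893 CPM in iKO, with overlap (log2 fold change 0.11 ± 0.09). Monocyte-like cells had 1453, 1038, 1112 and 1136 CPM in control and 2709, 2624, 2383 and 2358 CPM in iKO, without overlap (1.09 ± 0.12). The within-sample log2 ratio of monocyte-like to B-like cells was -0.71 ± 0.19 in control and 0.30 ± 0.10 in iKO, without overlap, so the order of the 2 classes was the opposite. Neutrophil-like (1.17 ± 0.20) and macrophage-like cells (1.03 ± 0.31) resembled monocyte-like cells in fold, and Treg-like (0.26 ± 0.13) and CD4 T-like cells (0.33 ± 0.12) resembled B-like cells. The fold of Ly6e was at most 2.13 by means, in monocyte-like cells. In the gates, Ly6e was lower in monocytes than in B cells within control (-0.89 ± 0.14, adjusted p = 2.3e-06, edgeR), where 26.5% of genes were called lower. Within iKO the difference was 0.24 ± 0.17 (adjusted p = 0.24, edgeR).

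Ly6c1 was close to absent from these tumour leukocytes. Its level was highest in Lef1/Tcf7-led T cells, at 30.0, 0, 13.9 and 5.42 CPM in control and 17.8, 7.16, 36.1 and 19.7 CPM in iKO, and the genotypes overlapped (0.56 ± 0.55). In monocyte-like cells it was 0.93 ± 0.78 CPM in control and 1.74 ± 0.91 in iKO. The area under the curve for monocyte-like cells against all others was 0.499 in control and 0.500 in iKO. Ly6C in these matrices therefore means Ly6c2, within the limit that some reads of this pair cannot be assigned.

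The genes whose pattern was most like each member were read over 119 class-by-sample profiles and 7803 genes, as Pearson correlations of log2(CPM + 1). Profiles of 1 sample share a library and the classes share their genotype difference, so the values are a description. Ly6c2 was closest to Lgals9 (0.679), which encodes galectin-9, to Slfn8 (0.676), to the interferon-inducible genes Ifi213 (0.667) and Ifi47 (0.662), and to Trim30c (0.664). Ly6a was closest to the class Ib MHC genes H2-T22 (0.758) and H2-T23 (0.723) and to the interferon-inducible GTPase gene Iigp1 (0.736). Ly6i was closest to Ifi204 (0.878), to the antiviral gene Ifitm3 (0.876) and to the myeloid gene Lst1 (0.871). Ly6e was closest to the kinase gene Csk (0.844), to Selenot (0.821) and to Sys1 (0.756). Ly6c1 had weaker neighbours, led by Atp1b3 (0.564). Among the members, Ly6a and Ly6e were the most alike (0.631), and Ly6c2 had 0.472 with Ly6e and 0.314 with Ly6a.

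The list of 42 interferon-response genes was written with results of these data known, and is not independent evidence of its direction. Over all cells 40 of 42 were called higher in iKO, 0 lower (edgeR), with a median log2 fold change of 1.57 where 1.69% of all genes were called higher. Ifi44 (3.72 ± 0.47, adjusted p = 0.0062), the regulator Irf7 (2.73 ± 0.21, adjusted p = 0.00080) and Oasl1 (2.39 ± 0.29, adjusted p = 0.0060) rose most among the 40. In monocyte-like cells 38 of 42 were called higher (median 1.95), led by Ifi44 (3.92 ± 0.58), Oasl1 (3.02 ± 0.63) and Irf7 (2.99 ± 0.26), where 6.91% of all genes were called higher. In CD8 T-like cells 35 of 41 were called higher (median 1.41), led by Usp18 (2.91 ± 0.41), Ifi44 (2.81 ± 0.33) and Oas1a (2.61 ± 0.26), where 3.05% were. The Ly6c2 fold was thus above the list's median over all cells, in monocyte-like cells and in CD8 T-like cells. Klra9/Klrb1c-led T cells had 21 of 32 called higher with a median of 1.44, against 0.90 for Ly6c2, where 1.40% of all genes were called higher. Lef1/Tcf7-led T cells had 30 of 33 with a median of 1.46, against 1.03 for Ly6c2, where 1.73% were. In macrophage-like cells edgeR called 2 of 42 (0.143% of all genes) although 40 had an unadjusted p under 0.05, and DESeq2 called 33. In mature DC-like cells it called 0 of 40 (0.0139% of all genes) although 36 had an unadjusted p under 0.05, with 11 called with the replicate number as a block and 14 by DESeq2.

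The interferon-response genes were also called higher in other classes. With edgeR they were 41 of 42 in Ace/Treml4-led, 36 of 41 in neutrophil-like, 35 of 42 in cDC2-like, 35 of 38 in CD4 T-like, 25 of 39 in Treg-like, 18 of 25 in B-like and 18 of 42 in mixed cells, with 0 lower in any of them. Of all genes, 2.68%, 1.66%, 2.02%, 1.85%, 0.942%, 1.81% and 1.61% were called higher in these classes, in the same order. With the replicate block the counts were 41, 39, 41, 35, 34, 17 and 40. The last class had 39 genes at an unadjusted p under 0.05. DESeq2 called 0 lower in these classes too.

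Genes upstream of interferon signalling and genes of the GPI anchor were rarely called, where edgeR called 2.53% of all genes over all cells, 11.6% in monocyte-like, 5.26% in CD8 T-like and 5.08% in Ace/Treml4-led cells in either direction. Of the receptor and kinase genes Ifnar1, Ifnar2, Ifngr1, Ifngr2, Jak1, Jak2 and Tyk2, edgeR called 0 of 7 over all cells (1 at an unadjusted p under 0.05, 0 by DESeq2). It called 0 of 7 in monocyte-like cells (4 unadjusted, 1 by DESeq2) and 0 of 7 in CD8 T-like cells (0 unadjusted, 0 by DESeq2). Ifngr1 was lower in Ace/Treml4-led cells (-0.64 ± 0.13, adjusted p = 0.0097, edgeR). Of 24 genes that build or remodel the GPI anchor, edgeR called 0 over all cells (6 unadjusted, 1 with the block, 2 by DESeq2). In monocyte-like cells 1 of 19 was called, Pgap2, which remodels the anchor's lipid (0.76 ± 0.15, adjusted p = 0.0092, edgeR).

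Other monocyte genes went in both directions. Over all cells 3 of 14 were called higher: Ace (1.51 ± 0.21) and Treml4 (1.43 ± 0.29), genes of patrolling monocytes, and Plac8 (1.08 ± 0.22), with 0 lower (2 lower with the block, 1 by DESeq2). In monocyte-like cells 1 of 14 was called higher (2 by DESeq2) and 3 lower (median -0.10), where 4.72% of all genes were called lower. Among the 3, the fibronectin gene Fn1 (-1.40 ± 0.13, adjusted p = 0.000405) and Chil3 (-1.33 ± 0.36, adjusted p = 0.036, edgeR) were lower. In CD8 T-like cells 4 of 12 were called lower and 0 higher (6 lower and 1 higher with the block, 6 lower by DESeq2), where 2.20% of all genes were called lower. Fn1 (-3.08 ± 0.45, 3.3 CPM in iKO and 24.6 in control) and F13a1 (-2.35 ± 0.45, 3.24 and 13.45 CPM) led them, at low levels. Monocyte-like cells had 321 CPM of Fn1 in iKO and 846 in control. Fn1 was also called lower in CD4 T-like, Treg-like, Klra9/Klrb1c-led T, Lef1/Tcf7-led T, neutrophil-like and cDC2-like cells, so its lower level was not particular to CD8 T-like cells. The part of stray RNA in these levels was not tested.

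The other family members were mostly too rare to measure. Of 32 further Ly6/uPAR genes in the matrices 9 were tested over all cells, and edgeR called 0 (2 at an unadjusted p under 0.05, 0 by DESeq2). Plaur, the urokinase receptor gene that gives the family its name, was abundant and differed by -0.13 ± 0.20 (adjusted p = 0.74) over all cells and by 0.05 ± 0.12 in monocyte-like cells (adjusted p = 0.82, edgeR). Ly6d, a gene of B-cell precursors and pDC, differed by -0.79 ± 0.64 (adjusted p = 0.49). Ly6g, the neutrophil antigen gene next to the cluster, was at 381 CPM in iKO and 72.4 CPM in control neutrophil-like cells (2.38 ± 0.58), and its samples overlapped (adjusted p = 0.069, edgeR, but called with the block and by DESeq2).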

How the data were processed

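Live CD45+ cells of 8 hashtagged samples (4 per genotype) were measured with 10x 3' kits. The deposited files hold raw UMI counts per gene and cell, made by the authors with Cell Ranger 7.1.0 per the file headers and on GRCm39 per the submitters' processing notes. How hashtags were assigned is not given in the sources used here. Samples are named as the file labels number them, and groups follow the labelled genotype.

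Barcodes with fewer than 300 genes or over 10% mitochondrial UMIs were removed, leaving 22490 of 23731. Scrublet marked 438 doublets (1.95%), leaving 22052 cells. Cells were clustered with scanpy 1.11.5 (2000 variable genes without Ly6 genes, 30 principal components, 20 neighbours, Leiden resolution 2, 31 clusters). Classes were named from marker lists without Ly6 genes. The resolution and naming thresholds were set after seeing the data. Clusters whose markers disagreed keep their leading genes as name.

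UMIs were summed per sample and class of at least 20 cells. CPM scale a gene's UMIs to the total of that sum. edgeR 4.0.16 (R 4.3.3, TMM, filterByExpr, quasi-likelihood test) gave fold changes and Benjamini-Hochberg adjusted p over all genes, with a threshold of 0.05. Gates needed at least 3 marker UMIs and 3 times every other gate's sum. On simulated data with 200 genes changed 4-fold, 99.5% were recovered over all cells (13579 genes), 99.5% in monocyte-like cells (9287 genes), 98% in CD8 T-like cells (9298 genes) and 98% in the control gates (10182 genes). Of the genes called, 4.78%, 3.86%, 2.49% and 2.49% were false, in the same order. The simulation used a fixed dispersion and changed only well-counted genes, so it does not give the recovery in classes whose samples varied more.

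Members and lists were chosen with earlier results of these data known. Named genes are the 5 members, the 3 largest called changes of each list in the profile spoken of, called genes against a list's main direction, and the 5 genes (3 for the other members) most like each member. In Ace/Treml4-led cells the GPI-anchor list gave 1 higher and 1 lower of 15 (Pgap2 0.76 ± 0.14, Pigx -0.57 ± 0.15, the latter not called with the replicate block), and of the monocyte genes Eno3 was higher (0.83 ± 0.19) and Fn1 lower (-2.47 ± 0.34). One gene of the monocyte list is not reported here. The genes Ly6a2, Cd163l1 and Tcrg-C1 were not analysed here. Same-numbered iKO and control samples deviated together (r = 0.502, 0.239, 0.145 and 0.532 for numbers 1 to 4, over genes), so the number was used as a block in an alternative fit. Yet iKO 2 was closer to control 1 (0.581) and iKO 3 to control 4 (0.347) than to their own numbers. The labels do not say what the number stands for. No 2 samples agreed within sampling noise. The iKO samples fell into 2 pairs by chi-square per degree of freedom. It was 25.4 between iKO 1 and 2 and 8.19 between iKO 3 and 4, but 102 to 230 across the pairs. The 4 iKO samples were thus not equally far apart, which SD and SE over n = 4 do not show. The cause was not tested. Alternatives were DESeq2 1.42.0, no filter on low counts, the replicate block, each sample left out, doublets kept, marker gates, other thinning, and Ly6c1 and Ly6c2 summed. Intervals and limits from counts cover counting error only.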

Additional observations from a re-analysis of the deposited data

Results flagged for a closer look

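In 7 of 167 groups of 4 samples looked at, 1 sample lay far from the other 3 (Dixon's test at its 95% critical value). Chance alone gives about 1 in 20 such groups. Control 1 was the sample that stood apart in 5 of the 7. Ly6c2 was at 182.1 CPM in B-like cells of control 1, where the other control samples had 28.0 to 49.6 CPM. It was at 79.4 CPM in Treg-like cells of control 1, against 11.9 to 17.2 CPM. In mixed monocyte/macrophage cells of control 1, 34.1% of thinned cells had a Ly6c2 UMI, against 20.4% to 20.6%. Ly6e was at 878.6 CPM in the mixed cells of control 1, against 571.6 to 617.5 CPM. Ly6a was at 1285.6 CPM in cDC2-like cells of control 1, against 515.2 to 619.8 CPM.

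The other two concern the area under the curve of Ly6c2. Monocyte-like against Ace/Treml4-led cells gave 0.556 in control 2 and 0.713 to 0.715 in the other control samples. That sample held 42 monocyte-like cells. Monocyte-like against cDC2-like cells gave 0.817 in iKO 1 and 0.889 to 0.895 in the other iKO samples.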

How the results depend on the processing

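All 661 alternative values of the 50 fold changes of members kept their sign, and 649 stayed within the spread between samples. Of 364 alternatives to the 52 gate tests of members, 341 kept their call and direction. The number of genes called over all cells was 340, 1282 with DESeq2, 708 with the replicate block and 108 to 488 with 1 sample left out. With the block, the counts of called interferon genes went from 0 to 11 in mature DC-like and from 18 to 40 in mixed cells, and Pigx in Ace/Treml4-led cells lost its call. The other counts of called interferon genes moved by less than 1.5 times with the block. Leaving out 1 sample gave 525 to 1289 called genes in monocyte-like cells (1081 with all) and 233 to 476 in CD8 T-like cells (489 with all).

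Within control, Ly6c2 in the monocyte gate over the CD8 T gate became a call with no filter on low counts (0.50), and leaving out 1 sample gave 0.21 to 0.66. Within iKO, the value over neutrophils was 0.80 to 1.10 with 1 sample left out. The causes were not tested.

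Shares of cells with a Ly6c2 UMI followed the depth. Thinned to 1000 UMIs they were 84.3% of iKO monocyte-like cells, 17.7% of control and 53.5% of iKO CD8 T-like cells, and 1.65% of control and 17.1% of iKO B-like cells. Not thinned they were 83.6% and 99.3% (control and iKO monocyte-like), 49.8% and 89.9% (CD8 T-like), and 9.67% and 49.1% (B-like). The area under the curve without thinning was 0.781 in control and 0.827 in iKO against all other cells, and 0.720 in control against CD8 T-like cells.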

Other observations

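Classes with too few cells for a comparison also carried Ly6c2. In pDC-like cells, dendritic cells specialised in making type I interferon, it was at 4781, 3901, 1896 and 1798 CPM in iKO 1 to 4, and at 1273 CPM in control 3, the only control sample with at least 20 such cells. NK-like cells reached 20 cells in 4 samples, at 730.0 and 663.4 CPM in iKO 1 and 2 and at 603.0 and 351.0 CPM in control 1 and 3.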
